A study of Homo sapiens with 6 samples.

Results

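The proteasome genes of 786-O, an established human clear cell renal carcinoma line, were compared between cells carrying a control short hairpin RNA (sh-Control, 3 libraries) and cells carrying a short hairpin RNA against the Polycomb chromobox gene CBX7 (sh-CBX7, 3 libraries). The members are the protein-coding genes of the count table whose names begin with PSM, a letter from A to G and a number, which gave 49 of 19951 protein-coding genes and of 58735 genes in all. They comprise 31 constitutive subunits, 5 interferon-linked genes (PSMB8, PSMB9, PSMB10, PSME1 and PSME2) and 13 others, most of them chaperones, further activators and tissue-restricted subunits. PSMC3IP, a recombination factor, enters by its name alone and is no subunit. Both groups share the cell line, and no age, time or further agent is given in the sources used here. Nor do those sources say how many hairpins or clones were used. CBX7 itself was counted at 12.2, 13.2 and 11.2 CPM (counts scaled to a common library size) in the sh-Control libraries and at 7.59, 6.70 and 8.01 CPM in the sh-CBX7 libraries, a log2 change of -0.71 (SE 0.13, edgeR adjusted p = 5.4e-05), so the target transcript was reduced but still present.

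The proteasome is the large protease that degrades ubiquitin-tagged proteins. Its barrel-shaped 20S core is built of outer alpha rings and inner beta rings, of which only a few beta subunits cut peptide bonds, and the 19S cap recognises, unfolds and feeds in the substrate. In cells exposed to interferon, the cutting subunits PSMB5, PSMB6 and PSMB7 are replaced in newly built cores by PSMB8, PSMB9 and PSMB10, and the PA28 activator of PSME1 and PSME2 can cap the core; the peptides made by this immunoproteasome are a source of ligands for MHC class I.

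Total counts ran from 16384151 to 18868874 per library, of which the members took 0.776% ± 0.0089 in sh-Control and 0.748% ± 0.0040 in sh-CBX7 (mean ± SD, n = 3 each). The test throughout is edgeR's quasi-likelihood test over 14573 genes, with p-values adjusted by the Benjamini-Hochberg method and called below 0.05. It called 26.1% of all tested genes higher and 27.2% lower in sh-CBX7, so calls were common in this comparison. All CPM values are normalised by TMM (trimmed mean of M values), and differences are log2 fold changes of sh-CBX7 over sh-Control with their standard error (SE). Replicates are libraries that the labels number separately; whether they came from separate cultures is not stated, and the p-values can speak only of how far these 6 libraries vary, which may be technical. In bulk libraries, a change in the number of cells that express a gene and a change in RNA per cell cannot be told apart. All 9 kidney epithelium markers were tested, of which 4 were called higher in sh-CBX7 (MME, KRT8, KRT18 and KRT19, with log2 fold changes of 0.81, 0.44, 0.43 and 0.23), 3 lower (CDH16, PAX2 and PAX8, at -1.71, -0.49 and -0.32) and 2 not called (EPCAM and CA9). Their summed level was 1647 to 1950 CPM in sh-Control and 2070 to 2261 CPM in sh-CBX7, and PAX8, a renal lineage factor, was present in every library, at 224 to 294 CPM. Of 5 endothelium markers 2 were tested and PECAM1 was called higher, and of 6 fibroblast markers 3 were tested, with LUM called higher and COL1A1 lower, all at under 10 CPM.

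Of the 49 members, 47 were tested. PSMA8, the testis form of an alpha subunit, had no counts in any library, and PSMB11, the thymus form of the PSMB5 type subunit, had 2 counts over all 6 libraries. Among the 47, 7 rose (14.9%, against the 26.1% of all genes), 18 fell (38.3%, against 27.2%) and 22 did not pass the test. The groups did not overlap for 8 members on the higher side (17.0%, against 29.1% of all tested genes) and for 22 on the lower side (46.8%, against 29.9%). The changes were small: the median size was 0.16 on the log2 scale, against 0.33 over all tested genes, and none of the 47 reached a log2 fold change of 1 in size, which 8.76% of all tested genes did. Of the 47, 4 (8.51%) reached 0.5 in size, against 32.5% of all tested genes.

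The direction differed between the constitutive and the interferon-linked members. Of the 31 constitutive subunits, 15 fell (48.4%), 2 rose (6.45%) and 14 did not pass the test, and their median log2 fold change was -0.14. Of the 5 interferon-linked genes, 3 rose (60%), none fell and 2 did not pass the test, with a median of 0.22. The medians were 0.37 apart, while the median over all tested genes was -0.006. This distance is a description of 2 lists and carries no test. Summed over its 31 genes, the constitutive set stood at 5966 ± 142 CPM in sh-Control and 5413 ± 16.4 CPM in sh-CBX7. The sum of the 5 interferon-linked genes stood at 1049 ± 33.1 and 1273 ± 28.7 CPM, and the groups did not overlap for either sum.

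**Figure D1:**
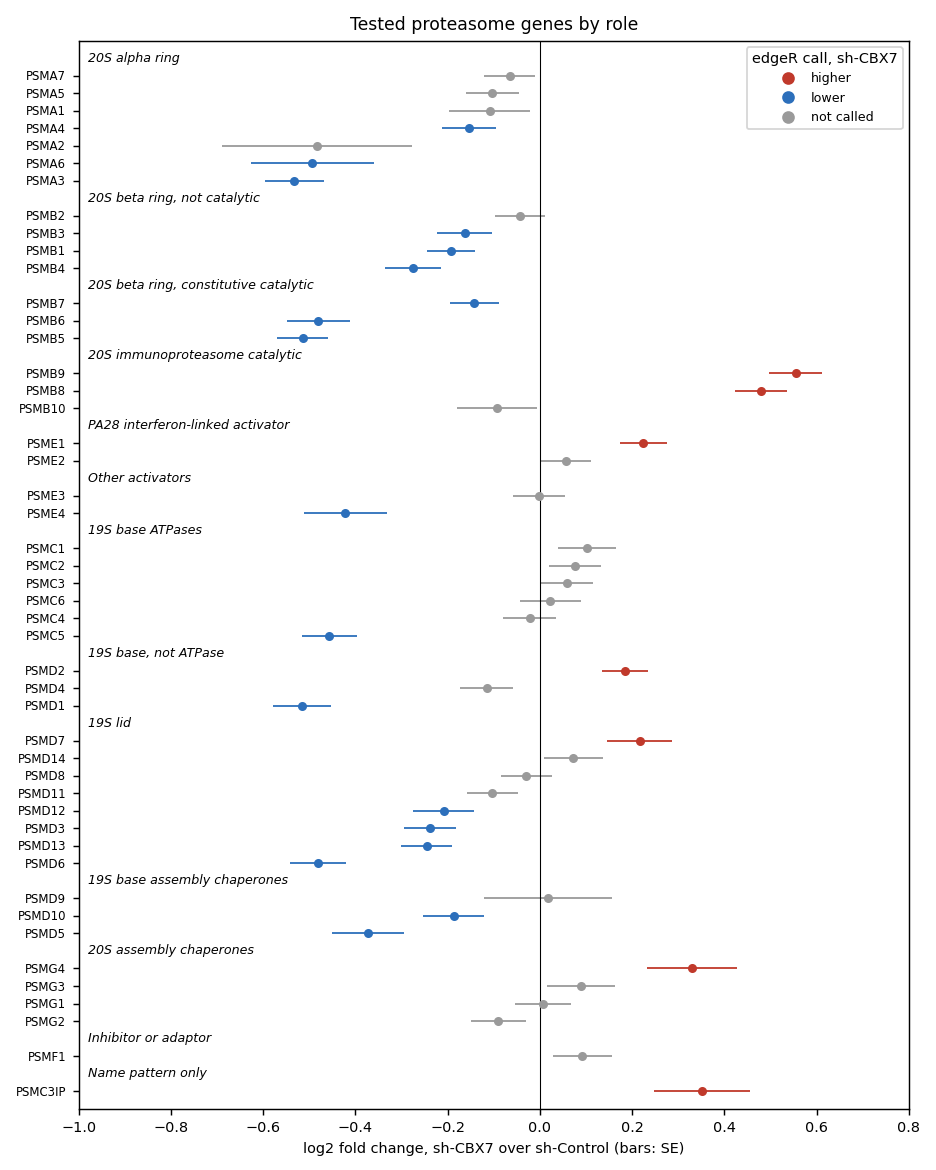
Log2 fold change of sh-CBX7 over sh-Control for the 47 tested members, grouped by role (points, horizontal axis, log2 scale) with the SE of each as a bar; red, called higher; blue, called lower; grey, not called. The catalytic subunits PSMB5, PSMB6 and PSMB7 lie left of 0, and PSMB8, PSMB9 and PSME1 lie right of it.

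Among the immunoproteasome catalytic subunits, PSMB9 and PSMB8 rose and PSMB10 did not pass the test. PSMB9 (GRCh38 chr6:32844136-32859585, plus strand), the interferon-inducible counterpart of PSMB6, was at 186, 176 and 169 CPM in sh-Control and 248, 267 and 266 CPM in sh-CBX7. All 3 sh-CBX7 libraries lay above all 3 controls, and the rise was 0.55 on the log2 scale (SE 0.058, edgeR adjusted p = 3.3e-08). PSMB8 (chr6:32840717-32844703, minus strand), the counterpart of PSMB5, was at 182, 169 and 184 CPM in sh-Control and 245, 256 and 245 CPM in sh-CBX7. Again the groups did not overlap, and the log2 change was 0.48 (SE 0.056, edgeR adjusted p = 2.1e-07). PSMB10 (chr16:67934502-67937087, minus strand), the counterpart of PSMB7, was at 52.6, 40.5 and 44.1 CPM in sh-Control and 39.9, 43.8 and 44.9 CPM in sh-CBX7. Its groups overlapped, with 1 control library above all others, and the log2 fold change was -0.09 (SE 0.087, edgeR adjusted p = 0.39). PSMB8 and PSMB9 lie on opposite strands and share 139 exon bases, and PSMB8-AS1, a noncoding gene with 315 counts, shares 618 exon bases with PSMB8. Reads in these bases cannot be told apart by strand here.

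Of the subunits of the PA28 activator, which are encoded near each other on chromosome 14, PSME1 rose and PSME2 did not pass the test. PSME1 (chr14:24136158-24138967, plus strand) was at 384, 374 and 372 CPM in sh-Control and 442, 449 and 430.0 CPM in sh-CBX7. The groups did not overlap, and PSME1 rose by 0.22 on the log2 scale (SE 0.051, edgeR adjusted p = 0.00079). PSME2 (chr14:24143362-24147570, minus strand), its partner in the same ring, was at 282, 268 and 263 CPM in sh-Control and 273, 288 and 284 CPM in sh-CBX7. These overlapped, and the log2 change was 0.06 (SE 0.054, edgeR adjusted p = 0.39). Whether PSME1 and PSME2 differed from each other in their response was looked at through their ratio of counts per kilobase (kb), which was 2.74, 2.81 and 2.85 in sh-Control and 3.26, 3.13 and 3.05 in sh-CBX7. The ratio was chosen after their values were seen, and it carries no test here.

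Since immunoproteasome genes are also high in blood cells, 17 immune markers were read beside them. Only CSF1R and CD14 had enough counts to be tested. CSF1R was at 6.67 to 7.70 CPM in sh-Control and 15.4 to 17.7 CPM in sh-CBX7 and was called higher (log2 fold change 1.19), and CD14 was not called. The summed level of the list was 9.50 to 10.2 CPM in sh-Control and 17.3 to 20.8 CPM in sh-CBX7. Most of this sum was CSF1R in both groups, while CD14 had a mean of 1.62 CPM in sh-Control and 1.36 CPM in sh-CBX7. PTPRC, the pan-leukocyte marker, and CD2, CD3E, MS4A1 and FCGR3A had no counts in any of the 6 libraries. Whether the rise of CSF1R and that of the interferon-linked genes are connected was not tested.

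The genes whose place these subunits take all fell. PSMB5 (chr14:23016543-23035230, minus strand), which carries the chymotrypsin-like activity and is the site bound by bortezomib, was at 303, 276 and 288 CPM in sh-Control and 201, 201 and 205 CPM in sh-CBX7. It fell by 0.51 on the log2 scale (SE 0.055, edgeR adjusted p = 5.4e-08), with no overlap. PSMB6 (chr17:4796144-4798503, plus strand), of the caspase-like activity, was at 215, 192 and 199 CPM in sh-Control and 129, 148 and 158 CPM in sh-CBX7. Its 3 sh-CBX7 libraries were spread more widely than the controls but all lay below them, and the log2 change was -0.48 (SE 0.068, edgeR adjusted p = 3.3e-06). PSMB7 (chr9:124353466-124415444, minus strand), of the trypsin-like activity, was at 282, 269 and 281 CPM in sh-Control and 247, 254 and 253 CPM in sh-CBX7. It fell by the least of the 3, 0.14 on the log2 scale (SE 0.053, edgeR adjusted p = 0.028), and it lost its call under upper quartile normalisation (edgeR adjusted p = 0.14), without sh-Control replicate 3 and without any 1 of the sh-CBX7 replicates (0.061 to 0.10).

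**Figure D2:**
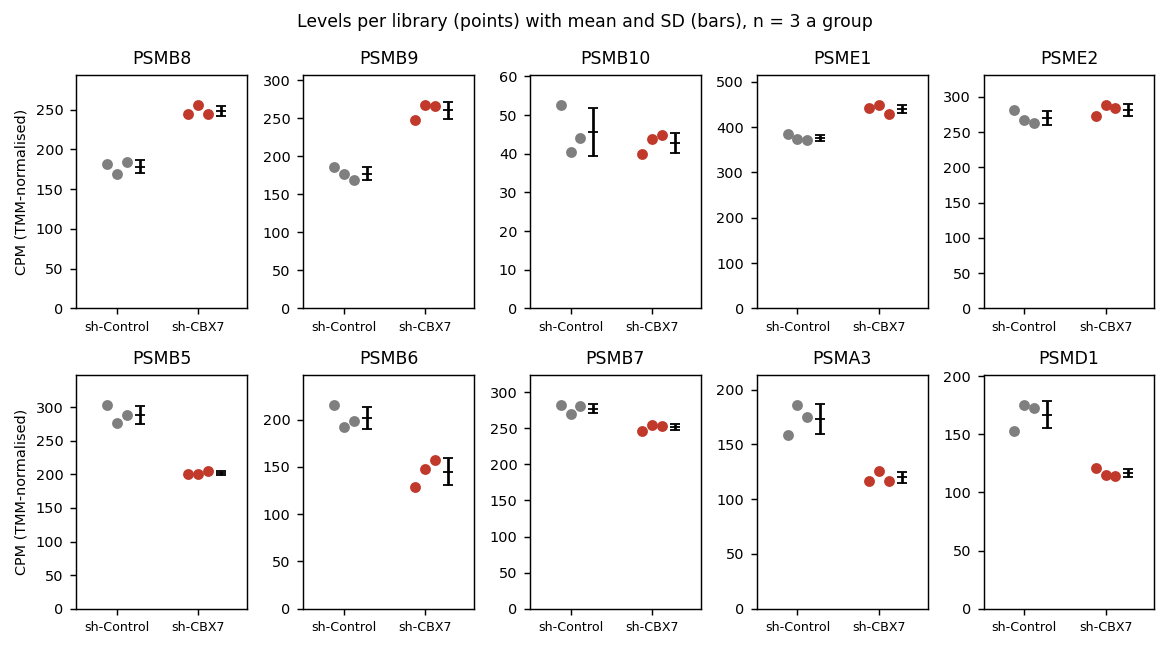
Level in CPM (vertical axes, from 0) of 10 members in each library: grey points, the 3 sh-Control libraries; red points, the 3 sh-CBX7 libraries; black bars, mean and SD. PSMB8, PSMB9 and PSME1 are higher in all 3 sh-CBX7 libraries, PSMB10 and PSME2 overlap, and the 5 genes of the lower row are lower in all 3.

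Because PSMB8, PSMB9 and PSMB10 compete with a partner for 1 place each in the core, the ratio of each pair was taken within each library, as counts per kb of exon, which no normalisation factor alters. The ratio of PSMB8 to PSMB5 was 0.354, 0.361 and 0.376 in sh-Control and 0.717, 0.751 and 0.703 in sh-CBX7. Its mean log2 value moved from -1.46 ± 0.045 to -0.47 ± 0.049 (SD, n = 3 each), a difference of 0.99, with every sh-CBX7 library above every control. PSMB9 to PSMB6 went from 0.407, 0.431 and 0.401 to 0.904, 0.850 and 0.794, a log2 difference of 1.04, again without overlap. Both ratios had p = 0.10 in a two-sided exact permutation test, the smallest that 3 libraries against 3 can give, and 0.15 adjusted over the 3 ratios, so the design cannot pass the threshold here. The ratio of PSMB10 to PSMB7 was 0.180, 0.145 and 0.151 in sh-Control and 0.156, 0.166 and 0.171 in sh-CBX7. These values overlapped, and the log2 difference of 0.06 was within the spread of the controls (SD 0.17; exact permutation p = 0.70, also 0.70 adjusted over the 3 ratios).

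Over the 6 catalytic genes together, PSMB8, PSMB9 and PSMB10 held 23.9%, 23.5% and 23.5% of the counts per kb in sh-Control and 35.02%, 35.4% and 34.4% in sh-CBX7. On this per-kb scale the constitutive forms held the larger part in every library. In CPM, without division by length, PSMB8 had a mean of 249 in sh-CBX7 against 202 for PSMB5. PSMB9 had 260 against 145 for PSMB6, and PSMB10 had 42.9 against 251 for PSMB7. The immunoproteasome genes summed to 552 ± 17.5 CPM in sh-CBX7 and their constitutive counterparts to 598 ± 19.7 CPM. Levels per kb rest on the length of all exons of a gene in the table, isoforms included, so levels of different genes are approximate while differences between groups within a pair are not affected by length.

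**Figure D3:**
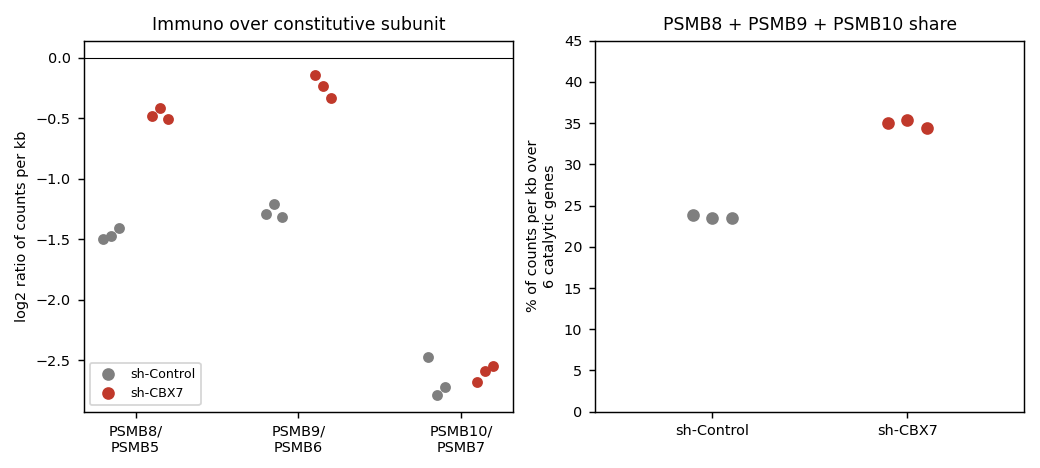
Left, log2 ratio of counts per kb of each immunoproteasome subunit over its constitutive counterpart in each library (grey, sh-Control; red, sh-CBX7); right, percent of counts per kb over the 6 catalytic genes that falls on PSMB8, PSMB9 and PSMB10. The ratios for PSMB8 and PSMB9 are higher in all 3 sh-CBX7 libraries, those for PSMB10 overlap, and the percent is 23.5 to 23.9 in sh-Control and 34.4 to 35.4 in sh-CBX7.

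The promoters of the interferon-linked genes were searched for 3 motifs, since interferon-responsive genes are known to carry binding elements for IRF and STAT factors, and proteasome genes carry antioxidant-type elements. RefSeq windows (GRCh38.p14, 250 bases before to 50 bases after the start site) matched 43 of the 49 members, 9 of them with more than 1 window; PSMA7, PSMB1, PSMB6, PSMB7, PSMD4 and PSMG3 were not matched. The interferon-type element GAAANNGAAA, read on both strands, was found for 4 of the 5 interferon-linked genes, 2 of 26 constitutive subunits and 7 of 43 members, against 4.38% of 27305 genes and 3.57% of 35116 windows. The stretches of 30 bases around the matches are shown to let the members be compared, in the direction of the gene with the match in capitals, and are followed by PSMG4 and by TAP1, the peptide transporter gene next to PSMB9.
PSMB8 (chr6:32844032-32844061, minus strand): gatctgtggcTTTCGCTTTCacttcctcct
PSME1 (chr14:24136189-24136218, plus strand): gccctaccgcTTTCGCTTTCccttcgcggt
PSME2 (chr14:24146619-24146648, minus strand): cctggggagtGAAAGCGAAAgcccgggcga
PSMB10 (chr16:67936852-67936881, minus strand): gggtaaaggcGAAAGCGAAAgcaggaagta
PSMG4 (chr6:3258904-3258933, plus strand): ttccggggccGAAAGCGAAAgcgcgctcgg
TAP1 (chr6:32853816-32853845, minus strand): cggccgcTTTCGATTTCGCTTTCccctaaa

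The capitals of PSMB8, PSME1, PSME2, PSMB10 and PSMG4 hold the same 10 letters, GAAAGCGAAA, on one strand or the other. Among these 5 genes, PSMB8, PSME1 and PSMG4 rose while PSME2 and PSMB10 did not pass the test, so members with the same letters differed in call. The matches of the constitutive subunits PSMA4 and PSMB4, both of which fell, had other bases between the repeats (GAAAATGAAA and GAAAAAGAAA). PSMB9 had no match in its own window. The TAP1 window, whose start site lies 488 bases from that of PSMB9 and which shares 13 bases with the PSMB9 window, held overlapping matches 354 bases from the PSMB9 start. The STAT-type core TTCNNNGAA was found for 1 of 5 interferon-linked genes (PSMB8), 5 of 26 constitutive subunits (PSMA2, PSMB5, PSMC4, PSMD2 and PSMD3) and 9.38% of all genes with a window. The antioxidant-type element TGACNNNGC, also read on both strands, was found for 3 of 5 interferon-linked genes, 7 of 26 constitutive subunits and 16.1% of all genes with a window. No matches of different motifs overlapped in any member. A match is a description of the letters, and a window without one says only that these letters are not in it.

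In the alpha ring, the gate through which substrates enter, 3 of 7 subunits fell (PSMA3, PSMA6 and PSMA4) and 4 did not pass the test (PSMA5 did without sh-Control replicate 1, edgeR adjusted p = 0.039), and all 7 log2 fold changes were below 0, from -0.53 to -0.07. PSMA3 (chr14:58244831-58272012) was at 159, 186 and 175 CPM in sh-Control and 117, 126 and 117 CPM in sh-CBX7. The groups did not overlap, and it fell by 0.53 on the log2 scale (SE 0.064, edgeR adjusted p = 3.3e-07), the lowest value among the 47 members. PSMA6 (chr14:35278633-35317493) was at 9.08, 9.35 and 10.5 CPM in sh-Control and 7.06, 6.10 and 7.34 CPM in sh-CBX7, without overlap (log2 fold change -0.49, SE 0.13, edgeR adjusted p = 0.0036). PSMA4, with a log2 change of -0.15, lost its call under upper quartile normalisation and without any 1 library other than sh-Control replicate 1 (edgeR adjusted p = 0.062 to 0.14). Summed over the ring, levels were 979 ± 3.24 CPM in sh-Control and 871 ± 12.9 CPM in sh-CBX7.

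PSMA1, PSMA2 and PSMA6 were counted far below their ring partners, although each proteasome ring holds every alpha subunit. Their totals over the 6 libraries were 2852, 345 and 856 counts, and their levels in sh-Control were 8.62, 0.72 and 1.48 CPM per kb, against 228 for PSMA7 and 55.5 for PSMA3. In the GENCODE 29 annotation, 91%, 100% and 89.7% of the principal coding bases of PSMA1, PSMA2 and PSMA6 lie in exons that another gene has on the same strand. The same held for 68.3% of PSMD9, a base chaperone with 1290 counts, and for 60.0% of PSMB10 (shared with AC040162.1, which had 70 counts). How the counting treated reads in shared exons is not given in the sources used here, and its part in these low counts was not tested. Levels of these 5 genes are therefore uncertain. PSMA2 (log2 fold change -0.48, SE 0.21) was not called, with an edgeR adjusted p of 0.053, or 0.039 without sh-CBX7 replicate 1.

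Of the beta subunits without a cutting site, 3 of 4 fell. PSMB4 had a log2 fold change of -0.28, PSMB1 of -0.19 and PSMB3 of -0.16, while PSMB2 at -0.04 did not pass the test. PSMB3 lost its call under upper quartile normalisation (edgeR adjusted p = 0.11) and without any 1 library other than sh-Control replicate 2 (0.055 to 0.079). Summed over its 4 genes, this group stood at 1266 ± 60.5 CPM in sh-Control and 1123 ± 27.95 CPM in sh-CBX7, and the groups did not overlap.

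In the 19S cap, calls went both ways. Of the 6 ATPases that unfold the substrate, only PSMC5 passed the test, and the sum over the ring overlapped between groups (804 ± 20.5 CPM in sh-Control, 785 ± 6.07 CPM in sh-CBX7). PSMC5 went from 149 ± 8.44 to 108 ± 1.07 CPM, a log2 change of -0.46 (SE 0.060, edgeR adjusted p = 1.1e-06), while the other 5 lay between -0.02 and 0.10. The exons of PSMC5 overlap those of FTSJ3 on the opposite strand over 19.5% of their bases. FTSJ3 also fell, from 1608, 1705 and 1579 to 1160, 1020 and 1081 counts, and since the strand setting of the counting is not given, reads of the shared bases cannot be told apart.

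In the base, the scaffold subunits PSMD1 and PSMD2 moved in opposite directions. PSMD1 (chr2:231056864-231172827) was at 153, 175 and 173 CPM in sh-Control and 121, 115 and 115 CPM in sh-CBX7. All sh-CBX7 libraries lay below the controls (log2 fold change -0.52, SE 0.063, edgeR adjusted p = 3.4e-07). PSMD2 (chr3:184298709-184309054), which docks ubiquitin-like domains, was at 532, 515 and 499 CPM in sh-Control and 581, 584 and 590.4 CPM in sh-CBX7, without overlap. It rose by 0.18 on the log2 scale (SE 0.051, edgeR adjusted p = 0.0039), and without sh-Control replicate 3 the edgeR adjusted p was 0.052. The ubiquitin receptor PSMD4 did not pass the test (log2 fold change -0.12, edgeR adjusted p = 0.097), but did without sh-Control replicate 2 (0.043).

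In the lid, which holds the deubiquitinating pair PSMD14 and PSMD7, 4 of 8 subunits fell and PSMD7 rose. PSMD6 (chr3:64010549-64024010) was at 114, 116 and 116 CPM in sh-Control and 78.4, 85.2 and 84.0 CPM in sh-CBX7. The groups did not overlap, and it fell by 0.48 on the log2 scale (SE 0.061, edgeR adjusted p = 5.9e-07). PSMD13, PSMD3 and PSMD12 fell by 0.25, 0.24 and 0.21 on the log2 scale, and PSMD12 lost its call without sh-CBX7 replicate 1 or 3 (edgeR adjusted p = 0.052 and 0.060). PSMD7 (chr16:74296775-74306288) was at 58.2, 54.9 and 57.4 CPM in sh-Control and 71.7, 65.2 and 60.9 CPM in sh-CBX7. It rose by 0.22 on the log2 scale (SE 0.071, edgeR adjusted p = 0.013) without overlap, but without sh-CBX7 replicate 1 the edgeR adjusted p was 0.12. On the opposite strand, AC009120.2, which had 80 counts, covers 30.7% of its exon bases. PSMD14, the active deubiquitinase of the pair, did not pass the test (0.07), nor did PSMD8 and PSMD11.

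Among the assembly factors and remaining regulators, PSMG4, a chaperone of the 20S core, was at 36.1, 25.8 and 30.6 CPM in sh-Control and 36.3, 39.3 and 40.5 CPM in sh-CBX7. The groups were separated narrowly, by the highest control and the lowest sh-CBX7 library, and the log2 change was 0.33 (SE 0.098, edgeR adjusted p = 0.0069), and the call was lost without sh-Control replicate 2 (edgeR adjusted p = 0.057). The other core chaperones PSMG1, PSMG2 and PSMG3 did not pass the test, though PSMG3 did without sh-Control replicate 1 (edgeR adjusted p = 0.0084). Of the 19S chaperones, PSMD5 and PSMD10 (gankyrin) had log2 fold changes of -0.37 and -0.19 and were called lower, and PSMD9 was not called. PSMD10 lost its call under upper quartile normalisation (edgeR adjusted p = 0.089) and without sh-Control replicate 2, sh-CBX7 replicate 2 or sh-CBX7 replicate 3 (0.074 to 0.12). PSME4, the PA200 activator, fell by 0.42 on the log2 scale, while the nuclear PA28 form PSME3, whose level was 177 ± 5.23 and 177 ± 6.62 CPM, had a log2 fold change of -0.003 and did not pass the test. The regulator PSMF1 did not pass the test either (0.09). PSMC3IP was at 15.3, 13.6 and 14.2 CPM in sh-Control and 17.7, 18.5 and 18.8 CPM in sh-CBX7, without overlap (log2 fold change 0.35, SE 0.10, edgeR adjusted p = 0.0065). MLX covers 29.9% of the exon bases of PSMC3IP on the opposite strand. It had 4998 counts against 1710 for PSMC3IP, and reads of the shared bases cannot be told apart.

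Genes that act before and after the proteasome were taken as lists. Of 15 genes of the MHC class I path, which loads the cut peptides, 13 rose and 1 fell, and the median log2 fold change was 0.61. TAP1 went from 195 to 412 mean CPM (log2 fold change 1.08), HLA-B, HLA-C and CALR rose by 0.86, 0.75 and 0.84, and the loading chaperone TAPBP fell by 0.44 on the log2 scale. Of 11 interferon receptor and signal genes, 6 rose. IFNGR2, IRF1 and IFNAR1 had log2 fold changes of 0.88, 0.73 and 0.35 and were called higher. Among 7 peptidases, most of them cytosolic (LNPEP is not) and able to trim or destroy proteasome products, 2 rose and 3 fell. LAP3 and LNPEP had log2 fold changes of 1.06 and 0.64, and NPEPPS and BLMH of -0.94 and -0.40.

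Of 5 genes for the transcription factors that activate proteasome genes and for their processing, 4 rose and none fell: NFE2L1 (0.39), DDI2 (0.62), NFE2L3 (0.25) and NFE2L2 (0.24, with overlapping groups). Among 10 proteasome partners outside the name pattern, 1 rose and 6 fell. The small lid subunit SEM1 was at 103, 113 and 114 CPM in sh-Control and 42.1, 55.0 and 58.3 CPM in sh-CBX7, and its log2 fold change of -1.09 was larger in size than that of any tested member. The deubiquitinase UCHL5 and the ligase UBE3C had log2 fold changes of -0.80 and -0.32, while ADRM1, the receptor that holds UCHL5 on the cap, had one of 0.44. Of 8 shuttles and VCP genes, 4 fell, with VCP at -0.31, NPLOC4 at -0.24 and UBQLN4 at -0.25. Of 6 ubiquitin and E1 genes, RPS27A and UBA1 fell (-0.42 and -0.32), and UBB at 0.13 did not pass the test. Each count reads against the 26.1% and 27.2% of all tested genes called higher and lower.

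**Figure D4:**
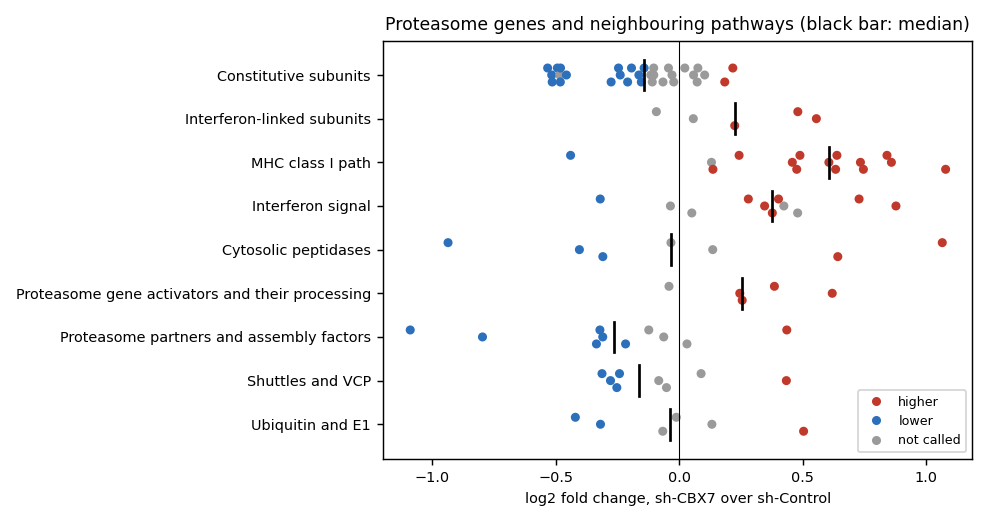
Log2 fold change of sh-CBX7 over sh-Control (horizontal axis) for each tested gene of the constitutive and interferon-linked members and of 7 lists of neighbouring pathways; red, called higher; blue, called lower; grey, not called; black bar, median of the list. The median is -0.14 for the constitutive subunits, 0.22 for the interferon-linked genes and 0.61 for the MHC class I path.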

How the data were processed

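Poly-A RNA from 6 libraries was counted per gene. The deposited table holds whole-number read counts without normalisation; its makers' tools, per the submitters' processing notes, were featureCounts 1.5.0-p3, HISAT2 2.0.5, Trimmomatic and FastQC, with hg19 as the build. The gene starts and ends in the deposited table were nevertheless those of GENCODE 29 on GRCh38 (58724 of 58735 genes), so positions are on GRCh38. Columns named siCBX7 were matched to the sh-CBX7 labels by target and replicate number.

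Counts were filtered with filterByExpr, scaled with TMM and tested unpaired with glmQLFit and glmQLFTest of edgeR 4.0.16 (R 4.3.3); the SE was the log2 fold change divided by the square root of F. The fit was also run on simulated data in which only a small part of the genes was changed. That setting differs from these data, where 53.3% of tested genes were called, so nothing is drawn from it here. Alternatives were 3 other scalings, no count filter, at least 1 CPM in 3 libraries, DESeq2 1.42.0, limma 3.58.1 voom, a replicate block and leaving out each library. Named genes are the interferon-linked members and their counterparts, the 4 largest called changes each way among other members without group overlap, and up to 4 genes of smallest p per list; others are given by fold change. Some genes that this rule takes are left out of the text. The members and lists were chosen with earlier results of these data known. Sequences are from RefSeq.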

Additional observations from a re-analysis of the deposited data

How the results depend on the processing

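Under 14 alternatives, none of the 47 tested members reversed a call. Of the 25 called members, 17 kept direction and call in all 14, and 8 lost the call in at least 1 (PSMA4, PSMB3, PSMB7, PSMD2, PSMD7, PSMD10, PSMD12 and PSMG4); 5 others gained one in at least 1 (PSMA2, PSMA5, PSMC1, PSMD4 and PSMG3). The count of interferon-linked genes called higher was 3 in each. Upper quartile scaling moved the median of all genes to 0.04 and gave 8 members higher and 14 lower. Leaving out 1 library gave 6 to 8 members higher and 13 to 18 lower, and 1 to 2 constitutive subunits higher, with 1 without sh-Control replicate 3 (PSMD2 lost) and without sh-CBX7 replicate 1 (PSMD7 lost), where fewer samples were fitted. The log2 difference in the ratio of PSMB10 to PSMB7 ran from -0.007 to 0.15 and changed sign without sh-Control replicate 2, which had the lowest ratio. At these sample sizes the exact permutation test cannot pass the 0.05 threshold for any ratio, so it gives no call in any of these settings. The distance between the 2 medians ran from 0.35 to 0.39 over all alternatives.

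With the replicate number as a block (replicate block), 7 members were higher and 19 lower, PSMD4 being added. Deviations of same-numbered libraries correlated at 0.055, 0.061 and 0.035 across genes, below 0.1, so the numbers were not taken to pair the libraries, although each library correlated best with its own number.

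PSMA8 and PSMB11 had too few counts for the test. With 3 libraries a group, the exact permutation test of a ratio does not go below 0.10.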

Other observations

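The name pattern also matched 37 rows that are not protein-coding, of which 9 had at least 10 counts over the 6 libraries. PSMA3-AS1, annotated antisense to PSMA3, was at 6.79, 11.2 and 7.24 CPM in sh-Control and 13.2, 14.7 and 11.2 CPM in sh-CBX7. It rose (log2 fold change 0.62, SE 0.16, edgeR adjusted p = 0.0020) where PSMA3 fell. PSMB8-AS1, which shares 618 exon bases with PSMB8, was not called (0.53, SE 0.24, edgeR adjusted p = 0.076) at 1.59 to 3.19 CPM in sh-Control and 2.92 to 3.99 CPM in sh-CBX7. These rows were chosen after their values were seen, and reads of antisense genes and their partners cannot be told apart here.

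The exon bases of PSMC1 overlap those of NRDE2 on the opposite strand over 75.8% of their length. NRDE2 was called lower (log2 fold change -0.66, edgeR adjusted p = 0.00011), and PSMC1 was not called (log2 fold change 0.10, edgeR adjusted p = 0.18).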
